A study of Mus musculus with 21 samples.

Results

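Broad peaks of the transcription factor c-MYC in wild-type (WT) immortalized mouse embryonic fibroblasts (MEFs) were examined, defined as peaks of the WT list at least 8000 bp wide from start to end. Members were thus chosen by the measured width alone, which picked 2842 of the 220037 WT peaks, and the remaining 217195 served as the comparison. The widths of the broad peaks, from 8001 to 62312 bp with a median of 10070 bp, describe the selection and are not a result. The broad peaks covered 32.6 Mb, which was 6.40% of all bases under WT peaks and 7.95% of the summed signal.

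The peaks come from CUT&RUN, an assay in which nuclease tethered to the antibody releases the DNA near the bound factor, and SEACR, a caller for such sparse coverage, listed them. Groups were Hsf1 CKO MEFs, in which Hsf1 was deleted by 7 days with 4-hydroxytamoxifen (1 mM in the labels), and Hsf1 WT MEFs kept for 7 days with ethanol, with 2 libraries each, plus 1 IgG library on a mixture of both cells. The sources used here do not name the Cre that deletes Hsf1. The antibody is labelled as one against c-MYC and N-MYC. RNA was sequenced in 4 groups of 3 libraries from Hsf1 WT MEFs transfected for 2 days with 10 nM siRNA: siHsf1 and siControl in a line that stably expresses LacZ, and siHsf1 and siControl in a line that stably expresses V5-GCN5. The labels do not say that replicates came from separate cultures, so p-values measure the spread between these libraries, which may be technical. Each genotype has a single peak list, so peak widths and counts carry no replicate error. RNA libraries held 3.69 M to 8.16 M counts in genes. A further 4 samples of a Myc siRNA experiment were not analysed here.

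c-MYC binds DNA with its partner MAX, most often at the E-box CACGTG, and is found at the promoters of most active genes, where genes of ribosome production, translation and cell growth are among its best known targets. HSF1 is the master regulator of chaperone genes under heat stress and binds inverted GAA units. GCN5, encoded by Kat2a, is a histone acetyltransferase that acts as a coactivator of MYC. Peaks over many kilobases can hold several sites and whole genes, so each broad peak is described here by where it lies, by the genes it covers and by the peaks that remained listed within it in CKO cells.

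Each promoter shown is 250 bases before to 50 bases after a transcript start, from RefSeq on GRCm38.p6, written along the strand of the gene. Of 32851 such promoters in the table, 841 from 712 genes lay wholly inside a broad peak. The promoters shown were chosen after values were seen, 4 with the E-box in capitals and 3 without one, so their shares do not describe the 841. Actg1 (cytoplasmic gamma-actin, minus strand) is at chr11:120348446-120348745, Hdgf (a heparin-binding growth factor, plus strand) at chr3:87906071-87906370, Galk1 (galactokinase, minus strand) at chr11:116012670-116012969 and Dazap2 (a small proline-rich adaptor protein, plus strand) at chr15:100615412-100615711. Those without the E-box in this window are Pim3 (a serine/threonine kinase, plus strand) at chr15:88861944-88862243, Ptma (prothymosin alpha, a classical MYC target, plus strand) at chr1:86526307-86526606 and Kat2a (minus strand) at chr11:100712418-100712717.
Actg1: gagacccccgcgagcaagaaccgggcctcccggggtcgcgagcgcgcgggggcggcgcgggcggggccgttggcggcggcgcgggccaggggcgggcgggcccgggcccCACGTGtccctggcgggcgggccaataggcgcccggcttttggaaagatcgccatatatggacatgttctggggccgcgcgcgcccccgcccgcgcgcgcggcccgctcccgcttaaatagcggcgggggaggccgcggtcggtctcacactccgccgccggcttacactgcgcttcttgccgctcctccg
Hdgf: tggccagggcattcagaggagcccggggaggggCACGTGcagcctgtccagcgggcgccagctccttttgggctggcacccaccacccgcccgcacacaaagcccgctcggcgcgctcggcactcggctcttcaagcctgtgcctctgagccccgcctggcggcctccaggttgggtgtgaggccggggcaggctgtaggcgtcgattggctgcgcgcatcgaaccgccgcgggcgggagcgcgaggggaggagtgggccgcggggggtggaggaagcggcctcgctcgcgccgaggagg
Galk1: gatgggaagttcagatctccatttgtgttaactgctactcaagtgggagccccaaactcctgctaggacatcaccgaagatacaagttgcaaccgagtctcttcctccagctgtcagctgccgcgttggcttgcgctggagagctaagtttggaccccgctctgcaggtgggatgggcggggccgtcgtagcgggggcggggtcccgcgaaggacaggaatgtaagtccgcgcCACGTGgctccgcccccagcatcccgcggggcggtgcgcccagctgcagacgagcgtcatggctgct
Dazap2: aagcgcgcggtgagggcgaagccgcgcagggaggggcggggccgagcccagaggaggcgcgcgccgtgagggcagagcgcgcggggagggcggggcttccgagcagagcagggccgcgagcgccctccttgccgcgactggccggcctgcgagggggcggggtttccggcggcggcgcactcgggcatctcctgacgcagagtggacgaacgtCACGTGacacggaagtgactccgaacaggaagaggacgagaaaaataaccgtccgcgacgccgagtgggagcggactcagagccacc
Pim3: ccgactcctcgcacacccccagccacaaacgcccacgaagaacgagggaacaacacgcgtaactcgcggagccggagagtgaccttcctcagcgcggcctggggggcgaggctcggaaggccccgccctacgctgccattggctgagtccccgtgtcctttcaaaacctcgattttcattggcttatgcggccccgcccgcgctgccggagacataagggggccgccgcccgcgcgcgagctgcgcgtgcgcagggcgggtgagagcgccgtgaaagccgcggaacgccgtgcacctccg
Ptma: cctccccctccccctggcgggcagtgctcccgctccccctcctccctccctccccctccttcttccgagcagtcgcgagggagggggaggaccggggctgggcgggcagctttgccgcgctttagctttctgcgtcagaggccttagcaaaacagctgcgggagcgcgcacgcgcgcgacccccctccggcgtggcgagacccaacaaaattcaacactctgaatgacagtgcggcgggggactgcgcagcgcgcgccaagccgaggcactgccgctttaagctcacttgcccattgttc
Kat2a: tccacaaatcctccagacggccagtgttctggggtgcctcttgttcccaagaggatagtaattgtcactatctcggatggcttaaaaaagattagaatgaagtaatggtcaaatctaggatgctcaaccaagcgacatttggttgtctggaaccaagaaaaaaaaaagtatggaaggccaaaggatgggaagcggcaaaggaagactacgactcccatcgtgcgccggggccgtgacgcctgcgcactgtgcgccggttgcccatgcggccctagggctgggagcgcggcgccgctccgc
Each of these promoters also lay inside a CKO peak, as did 43.2% of the 841 promoters inside broad peaks. Counted from the transcript start, the E-box begins at -141 in Actg1, -217 in Hdgf, -17 in Galk1 and -37 in Dazap2.

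The E-box CACGTG, which reads the same on both strands, was found in 76 of the 841 promoters inside broad peaks (9.04%), in 9.84% of the 12002 promoters inside other WT peaks and in 7.15% of all promoters in the table. Within the broad peaks, promoters that also lay inside a CKO peak held it in 46 of 363 cases (12.7%) and those outside CKO peaks in 30 of 478 (6.28%). The first of these sets was also richer in G and C, with a median of 63.0% against 51.7%, and the part of base composition in the difference was not tested. Promoters inside another WT peak and a CKO peak held the E-box in 533 of 3483 cases (15.3%), at a median G and C content of 63.7%, so this is not particular to broad peaks. The motif GAANNTTC, an inverted pair of the GAA units of heat-shock elements and likewise its own reverse complement, was in 6.18% of promoters inside broad peaks and 7.86% of all promoters. These matches describe letters in a window of fixed length. Myc and Hsf1 had no promoter in the table.

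The broad peaks were unevenly spread over the chromosomes. Chromosome 15 held 1476 of them (51.9%), against 8.17% of all WT peaks, and chromosome 11 held 433 (15.2%), against 7.21% of all WT peaks. Chromosomes 6, 3 and 8 followed with 195, 182 and 166 broad peaks, so that these 5 chromosomes held 86.3% of the broad peaks and 43.5% of all WT peaks. Chromosomes 12 and Y held 1 each, and 19 broad peaks lay on unplaced or unlocalized scaffolds. The CKO list, which has 6386 peaks of which 1 is 8000 bp wide or more, placed 10.8% of its peaks on chromosome 15 and 13.0% on chromosome 11.

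**Figure D1:**
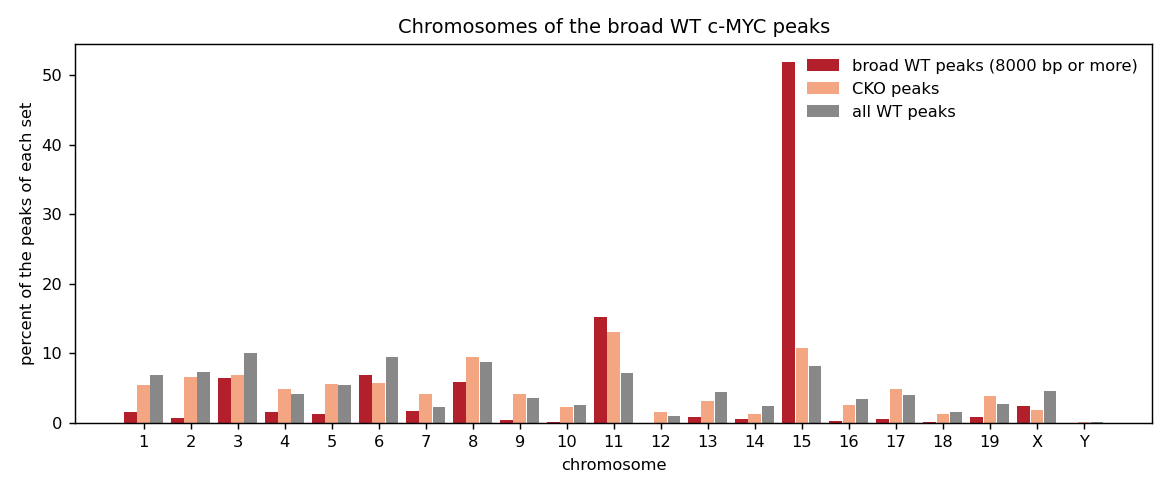
Percent of broad WT peaks, of CKO peaks and of all WT peaks on each chromosome (x axis), each set summing to all of its peaks including those on scaffolds. Chromosome 15 holds 51.9% of the broad peaks, 10.8% of the CKO peaks and 8.17% of all WT peaks.

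Within chromosomes the broad peaks were also grouped. Of the 433 on chromosome 11, 397 (91.7%) lay from 90 Mb to the end, a stretch with 33.1% of that chromosome's WT peaks, and 48 of the 49 on chromosome 7 lay before 30 Mb. In bins of 10 Mb, 9 of 285 bins held 100 or more broad peaks, 7 on chromosome 15 and 2 on chromosome 11, and 120 bins held none. The gap from a broad peak to the nearest other one had a median of 9.46 kb on chromosome 15 and 93.4 kb off chromosomes 15 and 11, and 87.5% and 40.5% of the broad peaks, in that order, had another within 50 kb.

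Chromosome 15 also differed in its remaining peaks. With the broad peaks left out, WT peaks still covered 46.7% of its annotated span, at 159 peaks per Mb and a median width of 2411 bp. Chromosome 8 came next with 34.2%, 147 peaks per Mb and 1906 bp, and chromosome 12 had 3.68%, 18.9 peaks per Mb and 1735 bp. The maximal coverage of a peak is a whole multiple of a smallest step in each list (0.000684 in WT and 0.000361 in CKO units), and the median of these other WT peaks was 7 steps on chromosome 15 and 6 steps on each other autosome and X. The steps of the 2 lists differ, so heights and widths were not compared between genotypes.

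The threshold cut a continuous range of widths. The narrowest broad peaks, of 8001, 8002, 8003, 8004 and 8005 bp, reached 9, 8, 12, 8 and 12 steps, and 1 of these 5 held a CKO peak, at Cbx8 (a Polycomb protein). The widest peaks below the threshold, of 7999, 7999, 7997, 7997 and 7995 bp, reached 8, 8, 7, 8 and 9 steps, and none held a CKO peak.

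The widest broad peak, chr15:100075173-100137484 (62312 bp), lay wholly in the body of Dip2b (a disco-interacting protein family member, 8.14 FPKM in siControl LacZ cells) and held 4 CKO peaks without reaching the gene's 5' end. FPKM, fragments scaled to transcript length and library size, are the authors' values. Among the 10 widest, 5 were on chromosome 15, 1 each on chromosomes 7, 13, 4 and 17, and 1 on the scaffold GL456212 of chromosome 1. The peak chr15:101208625-101255226 covered Acvr1b (an activin receptor, 9.51 FPKM), Grasp (a scaffold protein, 5.85 FPKM) and Nr4a1 (an immediate early nuclear receptor, 3.27 FPKM) and held 5 CKO peaks. The peaks chr15:103088672-103148064 and chr17:13203781-13244055, the second over the sperm kinase genes Smok2a and Smok2b, covered 2 and 4 genes, none at 1 CPM (counts scaled to library size) in siControl LacZ cells, and held no CKO peak. The peak chr7:15217587-15270875 covered no gene of the table, yet held 4 CKO peaks. The scaffold peak held 5, but genes on scaffolds were not matched to peaks, so the genes it covers are not known.

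A CKO peak lay wholly inside 572 of the 2842 broad peaks (20.1%, 95% exact binomial interval 18.7 to 21.6%, which covers counting error only). A total of 758 CKO peaks, 11.9% of that list, were placed this way. The number inside one broad peak was 1 in 445 cases, 2 in 90, 3 in 23, 4 in 6 and 5 in 8. With any shared base in place of full containment the count was 612. Together the CKO peaks took a median of 20.1% of the broad peak that held them, with a range of 4.28 to 80.7%, and 54.1% of them contained the point of highest WT coverage. Since wide intervals have more room, CKO midpoints were also counted per Mb: they numbered 25.1 per Mb of broad peaks and 10.2 per Mb of other WT peaks. Density was higher in each wider class, with 5.95, 11.4 and 17.1 midpoints per Mb in peaks under 2000 bp, from 2000 and from 4000 bp, and 21.0, 26.9 and 43.5 in peaks from 8000, from 12000 and from 20000 bp.

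Of the 8 broad peaks with 5 CKO peaks, 5 covered a gene of the table. Pim3 (35.5 FPKM) was under chr15:88853910-88877657, the one of these 8 with the highest maximum, 36 steps. Arf3 (a small GTPase of vesicle traffic, 126 FPKM) and Wnt10b (a WNT ligand, 34.9 FPKM) shared chr15:98748709-98782985. Hoxa10 and Hoxa11 (homeobox factors of limb and posterior body patterning, 13.3 and 9.73 FPKM) shared chr6:52228336-52250038 with Mir196b. One peak, chr8:123566040-123580479, covered 5S ribosomal RNA genes, a tandem repeat in which reads cannot be placed uniquely. Another lay at chr15:101208625-101255226, named above, and another on the scaffold of chromosome 1, where genes were not matched to peaks. The others lay at chr7:15429196-15460769, over no gene of the table, and at chr6:31068345-31089958, likewise over none.

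CKO peaks inside broad peaks went with expressed 5' ends, where expression was measured in the siControl LacZ line and not in the cells used for CUT&RUN. Of the 440 broad peaks that held the 5' end of a gene with at least 1 CPM on average in siControl LacZ cells, 321 held a CKO peak (73.0%, exact interval 68.5 to 77.1%). Of the 362 with 5' ends of less expressed genes alone, 57 did (15.7%, 12.1 to 19.9%), and of the 2040 without a 5' end, 194 did (9.51%, 8.27 to 10.9%). The 2040 include the 19 broad peaks on scaffolds, where genes were not matched to peaks. The intervals cover counting error only and treat peaks as independent, although 71.2% of broad peaks had another within 50 kb. They are no test between the classes. The order of the first class against the other 2 held within chromosome 15 (71.1, 16.8 and 8.30%), within chromosome 11 (78.5, 14.3 and 14.1%) and on all other chromosomes together (70.5, 14.4 and 9.62%). Among WT peaks from 4000 bp to the threshold the shares were 51.7, 7.91 and 2.64%, each lower than in the broad peaks, which are wider. Maximal WT coverage moved with the classes, with medians of 13, 10 and 9 steps in broad peaks, and its part in the shares was not tested. Of the 758 CKO peaks inside, 43.0% themselves held a gene 5' end, against 57.7% of the other 5628 CKO peaks.

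**Figure D2:**
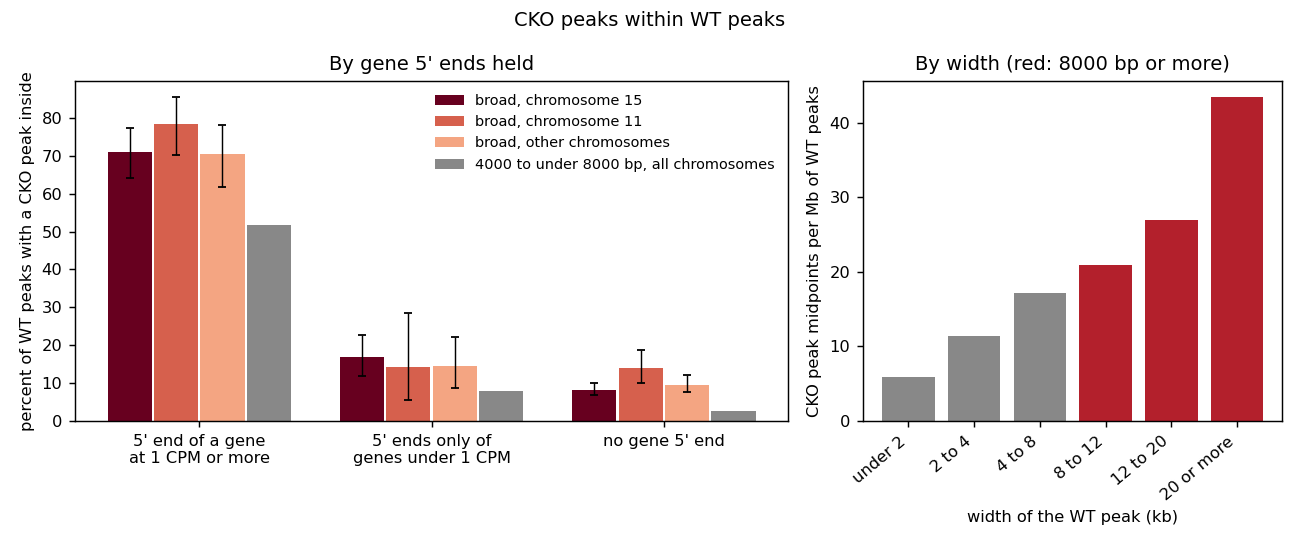
Left, percent of WT peaks with at least 1 CKO peak inside (y axis) by the gene 5' ends the WT peak holds, for broad peaks on 3 chromosome sets with exact 95% binomial intervals and for peaks from 4000 bp to the threshold without an interval. Broad peaks at expressed 5' ends reach 71.1, 78.5 and 70.5%, against at most 16.8% in the other classes of broad peaks. Right, CKO peak midpoints per Mb of WT peaks (y axis) by width of the WT peak, from 5.95 under 2 kb to 43.5 at 20 kb or more.

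Genes were called covered when at least 1 base of the span from gene start to gene end lay under a broad peak. This applied to 1896 of 41608 genes (4.56%), with the 5' end inside for 1116 and the whole gene for 454. They comprised 1337 protein-coding genes, 388 long non-coding RNA genes, 67 pseudogenes, 28 miRNA genes, 26 tRNA genes and 10 snoRNA genes. On chromosome 15 548 of 770 coding genes (71.2%) were covered, on chromosome 11 308 of 1611 (19.1%), and on chromosomes 10, 12 and 18 together 1. In the other direction, 860 broad peaks (30.3%) covered no gene and 1028 (36.2%) lay wholly within a gene body. The 860 include the 19 on scaffolds, where genes were not matched to peaks. Tmem117 (a transmembrane protein) carried 17 broad peaks, Nell2 (a secreted protein of neurons) 14 and Ctnnd2 (delta-catenin, a neuronal adhesion protein) 12, all on chromosome 15 and at 0.173, 0.0706 and 0 FPKM in siControl LacZ cells. Prkca (protein kinase C alpha) carried 11 at 14.5 FPKM and Ano6 (a phospholipid scramblase) 10 at 50.4 FPKM, so that long genes with many broad peaks included silent and active ones.

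Gene families with members on chromosome 15 were covered to different extents. Keratin genes (Krt, epithelial intermediate filaments) were covered in 35 of 53 cases, 24 of the 26 on chromosome 15 among them, and 2 of the 35 reached 1 CPM. Apolipoprotein L genes (Apol) were covered in 10 of 12 cases, 6 of them at 1 CPM or more, and Hox genes in 13 of 39, 7 of them among the 9 on chromosome 15 and 6 of the 13 at 1 CPM or more. Olfactory receptor genes were covered in 7 of 1117 cases, all on chromosome 15 and none at 1 CPM, and Ly6 genes (GPI-anchored surface proteins) in 6 of 28, all among the 15 on chromosome 15, with 3 of the 6 at 1 CPM or more. As a check of the cells, 7 of 8 fibroblast markers reached 1 CPM in siControl LacZ cells, with a summed TMM-scaled level of 4809 to 7047 CPM over the 12 libraries. Haematopoietic, endothelial, epithelial, muscle and neural markers reached 1 CPM in 1 of 8, 0 of 5, 1 of 5, 1 of 4 and 1 of 4 cases, with summed levels of at most 62.3 CPM in any library. In these bulk libraries fewer cells of a type and less RNA per cell cannot be told apart.

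Covered genes were more often expressed than genes in general. In siControl LacZ cells 948 of the 1896 covered genes reached 1 CPM, against 12390 of the 41303 genes placed on a chromosome. For protein-coding genes the shares were 66.2% of 1337 and 51.0% of 21892. Over all chromosomes, 67.8% of the 736 coding genes with the 5' end under a broad peak reached 1 CPM, against 75.4% of the 9717 with it under another WT peak. This order came from the chromosomes other than 15 and 11 (63.6% of 225 against 76.4% of 8455). It was the other way on chromosome 15 (65.5% of 330 against 60.4% of 351) and on chromosome 11 from 90 Mb on (76.6% of 171 against 62.6% of 340) and before 90 Mb (9 of 10 against 77.4% of 571). The median levels of the 2 sets over all chromosomes were 6.47 and 6.49 FPKM, and the upper quartiles 31.5 and 21.3 FPKM. Longer genes are more easily covered, and within length classes the order against uncovered genes held: of coding genes of 5 to 20 kb, 68.5% of 426 covered and 53.5% of 6448 uncovered ones reached 1 CPM, and of those over 100 kb, 63.4% of 232 and 56.4% of 2182.

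A CKO peak over the 5' end split the covered genes. Of the 371 coding genes with a broad WT peak and a CKO peak over the 5' end, 346 (93.3%) reached 1 CPM, and their median was 22.5 FPKM. Of the 365 with a broad WT peak and no CKO peak there, 153 (41.9%) did, and their median was 0.0998 FPKM. Under other WT peaks the shares were 95.3% of 3246 with a CKO peak and 65.4% of 6471 without, with medians of 14.9 and 3.04 FPKM. The split was therefore wider under broad peaks, a difference that was described and not tested.

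RNA levels were compared with the density of broad peaks across chromosomes. The median of expressed coding genes was 18.8 ± 0.34 FPKM on chromosome 15 (SD, n = 3 siControl LacZ libraries, 462 genes), the highest of the 20 chromosomes in each of the 12 libraries. Chromosomes 8, 3 and 11 followed with 12.9 ± 0.32, 12.3 ± 0.55 and 11.8 ± 0.05 FPKM, between which the spreads of chromosomes 8 and 3 and of chromosomes 3 and 11 met, and chromosome 12 had the lowest, 5.68 ± 0.15 FPKM. Chromosome 6, with 13.0 broad peaks per 10 Mb, had 9.86 ± 0.07 FPKM, below chromosomes 5 and 19 (10.8 ± 0.39 and 10.8 ± 0.19 FPKM), which have 2.37 and 3.75 broad peaks per 10 Mb. Over the 20 chromosomes, broad peaks per 10 Mb and this median had a Spearman correlation of 0.69, and 0.64 over 19 without chromosome 15. The points share the same libraries and are not independent, so no test is given. The density of all WT peaks moved with the median as well (Spearman 0.78, n = 20), as did that of CKO peaks (0.66), so the relation cannot be told apart from one with peak density overall. Peak density also changed abruptly within chromosomes, as on chromosome 7 with 1179 WT peaks from 20 to 30 Mb and 192 from 30 to 40 Mb. No measure of DNA copy number was used here, and its part in peak density and RNA level was not tested. On chromosome 15, expressed coding genes with the 5' end under a broad peak, with other parts covered and uncovered had medians of 22.0, 16.6 and 18.8 FPKM (216, 132 and 114 genes), so its uncovered genes were also high. On chromosome 11 from 90 Mb on the 3 medians were 19.2, 14.0 and 17.7 FPKM, while its 530 uncovered expressed genes before 90 Mb had a median of 9.58 FPKM.

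**Figure D3:**
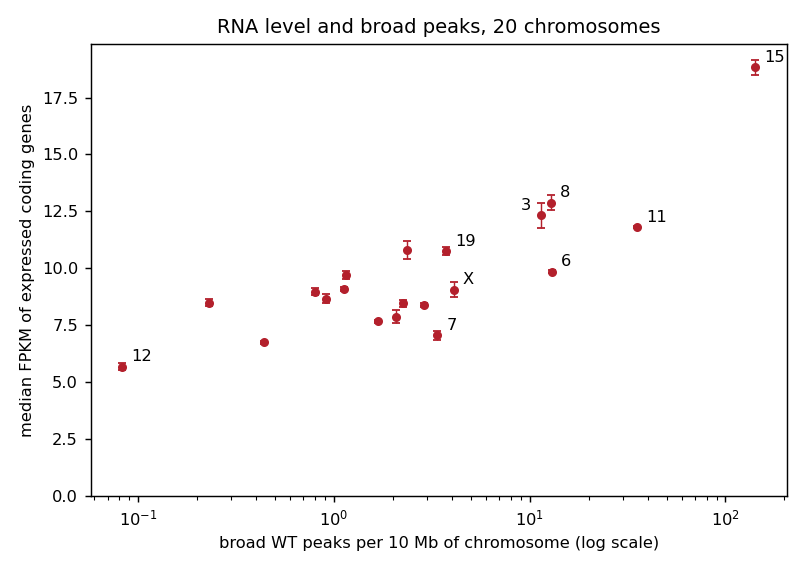
Median FPKM of protein-coding genes at 1 CPM or more (y axis; points are means of 3 siControl LacZ libraries, bars the SD) against broad WT peaks per 10 Mb of annotated chromosome (x axis, log scale) for 20 chromosomes. Chromosome 15 lies at the upper right with 142 broad peaks per 10 Mb and 18.8 FPKM, and chromosome 12 at the lower left with 5.68 FPKM.

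Actg1 and Ptma had the highest length-scaled levels of the covered genes in siControl LacZ cells. Actg1, wholly under a broad peak of 27924 bp with 3 CKO peaks inside, had 1499, 1430 and 1447 FPKM in siHsf1 LacZ cells, against 1431, 1555 and 1485 FPKM in siControl LacZ cells, and these ranges overlap. Ptma, wholly under a peak of 15594 bp with 2 CKO peaks, had 608, 481 and 543 FPKM in siHsf1 LacZ cells, against 812, 948 and 797 FPKM in siControl LacZ cells. Among the first 10 in siControl LacZ cells were also the ribosomal protein genes Rpl3 (842 ± 59.7 FPKM, SD, n = 3) and Rpl37 (611 ± 76.2), the squamous differentiation gene Sprr1a (759 ± 63.1), Pabpc1 (poly(A)-binding protein, 528 ± 16.4), Tuba1a (alpha-tubulin, 528 ± 14.1), Snora2b (a snoRNA, 480 ± 47.0) and Cct5 (a chaperonin subunit, 437 ± 34.7). Of these genes, 6 lie on chromosome 15. Snora2b lies within the span of Kansl2 (a subunit of histone acetyltransferase complexes, 383 ± 11.2 FPKM), and reads of the 2 genes may not be separable.

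Of the regulators named by the study, Myc and Kat2a were covered by broad peaks and Hsf1 was not, all in regions where many genes are covered. On chromosome 15, which holds Myc and Hsf1, 71.2% of coding genes were covered. On chromosome 11 from 90 Mb on, which holds Kat2a, 277 of 628 were. Myc was covered in whole by chr15:61983582-61992841 (9260 bp), with 1 CKO peak inside, and had 40.4, 36.3 and 35.7 FPKM in siHsf1 LacZ cells, against 53.5, 58.6 and 60.4 FPKM in siControl LacZ cells. Its neighbour Pvt1, a long non-coding RNA, carried 2 broad peaks. Kat2a, which encodes GCN5, was covered in whole by chr11:100700999-100715758 (14760 bp), with 2 CKO peaks inside, and had 36.4, 34.2 and 37.8 FPKM in siHsf1 LacZ cells, against 63.5, 63.4 and 64.7 FPKM in siControl LacZ cells. Hsf1 was not covered, and the nearest broad peak, over its neighbour Bop1, was 3.83 kb away. The knockdown itself was visible: Hsf1 had 23.6, 22.7 and 19.5 FPKM in siHsf1 LacZ cells, against 53.2, 53.3 and 55.5 FPKM in siControl LacZ cells, and 28.1, 30.8 and 30.1 FPKM in siHsf1 GCN5 cells, against 56.5, 49.9 and 57.0 FPKM in siControl GCN5 cells. With spike-in scaling the Hsf1 log2 fold change was -1.65 ± 0.33 in LacZ cells (edgeR adjusted p = 0.00012) and -0.93 ± 0.32 in GCN5 cells, where edgeR's adjusted p was 1.00, and TMM scaling gave -0.88 ± 0.08 there with an edgeR adjusted p of 8.2e-07.

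Fewer covered genes rose than fell after Hsf1 siRNA when counts were scaled to added ERCC spike-in RNA. In LacZ cells 55 of the 932 covered genes tested passed an adjusted p of 0.05 in edgeR's quasi-likelihood test with Benjamini-Hochberg adjustment, 9 higher and 46 lower in siHsf1, against a background of 7.02% of 12187 genes called (0.993% higher, 6.03% lower). The covered share was 5.90%, near the background. The median log2 fold change was -0.31 for covered genes and -0.35 for all genes tested, a shift that spike-in scaling carries, and with TMM scaling, which centres the genes, it was 0.07 and 0.02. TMM scaling called 266 covered genes higher and 186 lower (28.5 and 20.0%, together 48.5%), against a background of 21.1% higher and 19.5% lower (together 40.6%). The split between higher and lower calls therefore depends on the scaling. On chromosome 15, 24 of 367 covered genes (6.54%) and 33 of all 503 genes (6.56%) were called with spike-in scaling, and on chromosome 11, 9 of 229 covered genes (3.93%) and 74 of all 1003 genes (7.38%). The count of 55 rested on single libraries: it was 12, 96 and 19 without siControl LacZ replicates 1, 2 and 3, and 255, 17 and 11 without siHsf1 LacZ replicates 1, 2 and 3. The share of spike-in reads varied within groups, with 0.177, 0.356 and 0.248% in the siHsf1 LacZ libraries and 0.142, 0.239 and 0.190% in the siControl LacZ libraries.

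Ifit3 and Rnf213 had the largest increases among the 9 covered genes that rose in siHsf1 LacZ cells. The values that follow are CPM after spike-in scaling. Ifit3 (an interferon-induced antiviral protein), whose body but not 5' end lay under chr19:34585633-34600684, had 98.3, 66.1 and 81.0 CPM in siHsf1 cells, against 8.66, 4.52 and 8.09 CPM in siControl cells. Rnf213 (an interferon-inducible ubiquitin ligase), with the 5' end under a broad peak, had 2149, 1100 and 1519 CPM in siHsf1 cells, against 815, 294 and 639 CPM in siControl cells. In both genes each siHsf1 library was above each siControl library. Their log2 fold changes were 3.54 ± 0.36 (SE) and 1.45 ± 0.32, with edgeR adjusted p of 1.3e-18 and 0.00076. Dhx58 (an RNA sensor), which shares the Kat2a peak at one end, rose by 1.25 ± 0.32 on the log2 scale (edgeR adjusted p = 0.0054), Lgals3bp (a galectin-3 ligand) by 1.05 ± 0.32 (0.024), Sp140 (a nuclear body protein) by 1.17 ± 0.38 (0.035), Dpp7 (a dipeptidase) by 1.25 ± 0.33 (0.0064) and Tom1 (an endosomal sorting protein) by 0.96 ± 0.33 (0.048). Ak5 and LOC102639982, at low levels, complete the 9 that rose.

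Covered genes that fell included Bop1, Kat2a, Myc and Ptma, the covered members of the lists of MYC network genes and MYC targets. Bop1 (a ribosome biogenesis factor) had 172, 93.4 and 117 CPM in siHsf1 cells, against 355, 221 and 285 CPM in siControl cells, and its log2 fold change was -1.17 ± 0.32 (edgeR adjusted p = 0.011). Kat2a had 163, 78.4 and 123 CPM in siHsf1 cells, against 348, 202 and 266 CPM in siControl cells, at -1.17 ± 0.32 (0.011). Myc had 130, 59.7 and 83.1 CPM in siHsf1 cells, against 211, 134 and 178 CPM in siControl cells, at -0.94 ± 0.32 (0.049), and Ptma fell by 0.95 ± 0.32 on the log2 scale (edgeR adjusted p = 0.043). TMM scaling gave -0.80, -0.80, -0.60 and -0.63 for Bop1, Kat2a, Myc and Ptma. Each of the 4 lost its call without siControl LacZ replicate 1 or 3, or siHsf1 LacZ replicate 2 or 3. Of the most abundant genes, Rpl3, Rpl37, Snora2b and Cct5 also fell (-1.01, -1.03, -1.14 and -1.09), while Pabpc1 had a log2 fold change of -0.87 with an edgeR adjusted p of 0.066.

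Larger falls were seen in other covered genes. Gtse1 (a G2 and S phase protein) had 75.3, 41.6 and 54.9 CPM in siHsf1 cells, against 190, 110 and 153 CPM in siControl cells (log2 fold change -1.40 ± 0.33, edgeR adjusted p = 0.0016). Cntnap1 (a contactin-associated membrane protein) fell by 1.60 ± 0.33, Krt13 by 1.42 ± 0.34, Cela1 (an elastase) by 1.38 ± 0.35, Dph5 (diphthamide synthesis) by 1.36 ± 0.33 and Pus7l (a pseudouridine synthase) by 1.22 ± 0.34 on the log2 scale, with edgeR adjusted p between 0.00031 and 0.011. Gm25432, a transcribed pseudogene, fell by 1.60 ± 0.41. Of the 26 named values for Hsf1 siRNA in LacZ cells that passed, Hsf1 itself included, 6 kept the call whichever library was left out: Hsf1, Ifit3, Rnf213, Mir6516, Gtse1 and Cntnap1. Hspa4l, described with the GCN5 line, fell by 1.50 ± 0.40 in LacZ cells (edgeR adjusted p = 0.0083), although its groups overlapped and TMM scaling gave an edgeR adjusted p of 0.35.

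**Figure D4:**
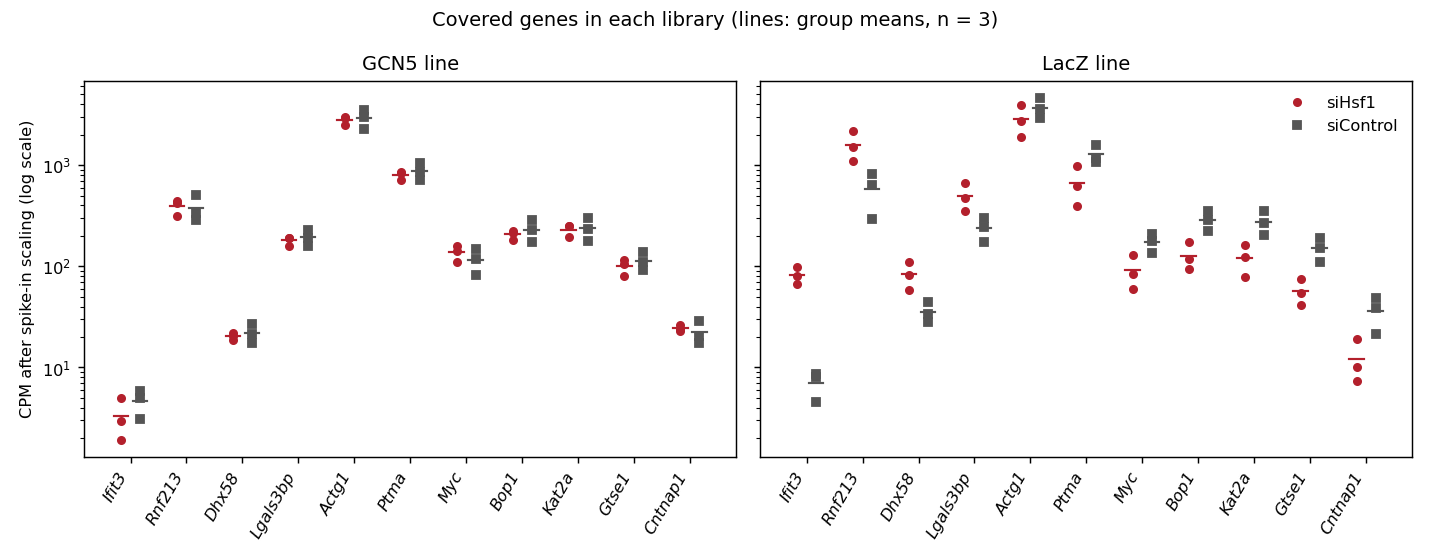
Levels of 11 covered genes in each library (y axis, CPM after spike-in scaling, log scale), with siHsf1 left of siControl, 3 libraries a group, lines at group means, and the GCN5 line left of the LacZ line. In LacZ cells Ifit3 had 66.1 to 98.3 CPM in siHsf1 and 4.52 to 8.66 CPM in siControl, whereas the groups of Actg1 overlap. All genes shown but Actg1 were called in this comparison, so the distance between their groups is no further result.

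Mir6516 showed the deepest fall among the covered genes called in LacZ cells. Its hairpin lies within Snhg20, a snoRNA host transcript, under chr11:117076278-117084639. The mature forms in RefSeq, with the seed (bases 2 to 8) in capitals, are shown to identify the locus, since the RNA libraries counted the hairpin gene and not these products. They lie at chr11:117077370-117077391 (5p) and chr11:117077412-117077433 (3p) on the plus strand.
mmu-miR-6516-5p: uUUGCAGUaacagguguggaca
mmu-miR-6516-3p: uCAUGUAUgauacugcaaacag
The locus had 5, 9 and 1 counts in siHsf1 LacZ libraries, against 29, 41 and 27 counts in siControl LacZ libraries, and a log2 fold change of -3.14 ± 0.51 (edgeR adjusted p = 5.1e-07). Snhg20 as a whole had a log2 fold change of -0.49 (edgeR adjusted p = 0.37) in the same test. Whether the counting separated strands or nested genes is not given in the sources used here, so the source of these reads within Snhg20 cannot be told apart.

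Most gene lists had few covered members, and immediate early genes had the most. Over all genes 4.56% were covered, and over protein-coding genes 6.08%. Differences of the lists from these shares were not tested. Of 17 MYC network genes 2 were covered (Myc, Kat2a), of 31 classical MYC targets 2 (Ptma, Bop1), of 22 immediate early genes 6 (Fosl1, Junb, Jund, Ier2, Maff, Nr4a1), of 28 matrix genes 2 (Col4a2, Fbln2), of 24 actin, SRF and YAP targets 2 (Actg1, Myh9), of 24 heat-shock chaperones 1 (Hspa4l) and of 22 snoRNA hosts and abundant nuclear RNAs 2 (Neat1, Pvt1), with none of 16 cyclins and CDK inhibitors and none of 22 TGF-beta and growth factor genes. In siHsf1 LacZ cells 23 of 31 tested MYC targets fell and none rose with spike-in scaling, the 2 covered ones among them, and the list had a median log2 fold change of -1.13, beside 6.03% lower, 0.993% higher and a median of -0.35 over all genes tested. With TMM scaling 29 fell and none rose, at a median of -0.73, beside 19.5% lower, 21.1% higher and a median of 0.02 over all genes tested. Of the 21 tested immediate early genes 1 rose (median -0.03) with spike-in scaling, beside 0.993% of all genes, and 13 with TMM scaling (median 0.40), beside 21.1% of all genes, and with spike-in scaling none of the 6 covered ones passed, with log2 fold changes from -0.79 (Fosl1) to 0.23 (Nr4a1). Of the 22 chaperones tested 13 fell with spike-in scaling (median -1.05), beside 6.03% of all genes, and 18 with TMM scaling (median -0.67), beside 19.5% of all genes.

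In GCN5 cells the same siRNA gave few calls. One covered gene, Hspa4l (an HSP110-type chaperone), passed with spike-in scaling, against a background of 0.041% of genes called (0.0328% higher, 0.00821% lower). Of the 932 covered genes tested, 10 had an unadjusted p under 0.05, and the share over all genes was not computed for this count. A broad peak of 8952 bp without a CKO peak lay over the 3' end of Hspa4l. Hspa4l had 1.2, 2.25 and 1.12 CPM in siHsf1 GCN5 cells, against 14.0, 10.8 and 10.2 CPM in siControl GCN5 cells, and in LacZ cells 2.70, 5.02 and 1.38 CPM with siHsf1, against 16, 8.68 and 2.25 CPM with siControl. The groups were apart in the GCN5 line and overlapped in the LacZ line. The log2 fold change in GCN5 cells was -2.94 ± 0.47 (edgeR adjusted p = 1.9e-06), and TMM scaling gave -2.92 ± 0.88 (edgeR adjusted p = 0.39), so the call depends on the scaling. TMM scaling called 2 covered genes, 1 in each direction, against a background of 0.164% (0.0656% higher, 0.0985% lower).

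How many covered genes had a different siRNA effect in the 2 lines depended on the fit. The difference, the GCN5 effect minus the LacZ effect on the log2 scale, passed with spike-in scaling for 3 of the 932, 2 higher and 1 lower, against a background of 0.394% (0.172% higher, 0.222% lower). Of the 932, 59 had an unadjusted p under 0.05, again without a share over all genes. With TMM scaling the difference passed for 262, against a background of 22.0% in either direction. Myc had log2 fold changes of 0.23 ± 0.32 in GCN5 cells and -0.94 ± 0.32 in LacZ cells, and the difference was 1.18 ± 0.45 with spike-in scaling (edgeR adjusted p = 0.39) and 0.88 ± 0.11 with TMM scaling (edgeR adjusted p = 2.4e-06). Kat2a, whose reads cannot be told apart from those of the V5-GCN5 transgene where sequences are shared, had -0.04 ± 0.32 in GCN5 cells and -1.17 ± 0.32 in LacZ cells, with a difference of 1.13 ± 0.45 with spike-in scaling (edgeR adjusted p = 0.45) and 0.81 ± 0.09 with TMM scaling (edgeR adjusted p = 2.3e-07). Both differences also passed with DESeq2 (adjusted p = 1.3e-10 and 5.2e-17), which, like TMM scaling, did not use the spike-in. With spike-in scaling both passed when siHsf1 LacZ replicate 1 was left out (edgeR adjusted p = 0.030 and 0.049). Neither passed when any other library was left out, with edgeR adjusted p of at least 0.16 for Myc and 0.18 for Kat2a.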

How the data were processed

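Peaks came from 2 CKO and 2 WT c-MYC CUT&RUN libraries and 1 IgG library, and RNA from 12 libraries. Reads were mapped with Bowtie2 and peaks called with SEACR, per the submitters' processing notes. Whether replicates were pooled is not given in the sources used here. Maximal signal per peak, scaled in a way the sources used here do not state, is the authors' value. RNA reads were mapped with HISAT2 to GRCm38 per the submitters' processing notes, and gene counts were deposited without normalization. FPKM were computed by the authors and deposited. Peak positions are on mm10.

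Genes under peaks, CKO peaks inside and promoter motifs were counted in Python 3.11.15 with pandas 2.3.3. Differential expression used edgeR 4.0.16 in R 4.3.3 on counts (quasi-likelihood, a minimum count of 10), all 4 groups sharing one spread and scaling by 23 ERCC transcripts, taken from knowledge of the supplier's design, not from the files, as equal in both mixes. TMM scaling and DESeq2 1.42.0, run with its own size factors and without the spike-in, were among the alternatives. The test was run first on simulated counts. These had less spread than the spike-in fit and were scaled by total gene counts, so that run does not bear on spike-in scaling. A count of 0 allowed up to 0.368 to 0.812 CPM (3 counts), for counting error only. The genes named were the 10 called covered genes with the largest change in each direction above a mean log2 CPM of 2, covered list members, the 10 highest levels, those under the widest peaks or those with most CKO peaks, and called interactions. Snhg20, Kansl2, Cbx8, the genes with many broad peaks, the promoters shown and the interactions of Myc and Kat2a, were chosen after values were seen. The members and the gene lists were chosen with earlier results of these data known. Replicate numbers were not used to pair libraries. Some genes that the naming rule picks are not reported here. The 4 samples of the Myc siRNA experiment were not analysed here.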

Additional observations from a re-analysis of the deposited data

Results flagged for a closer look

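The siRNA effect differed between the GCN5 and the LacZ line for 3 covered genes in edgeR's interaction test with spike-in scaling, each at a Benjamini-Hochberg adjusted p under 0.05. Ifit3 (an interferon-induced protein) had a difference of -4.04 ± 0.55 (SE, log2) with an edgeR adjusted p of 2.0e-09, and kept it in 12 of 12 fits that left out a library. Its levels were 1.92, 5.00 and 2.99 CPM in siHsf1 GCN5 libraries, against 5.91, 4.96 and 3.13 CPM in siControl GCN5 libraries, while LacZ cells had 66.1 to 98.3 CPM with siHsf1, against 4.52 to 8.66 CPM with siControl. Mir6516, the hairpin inside Snhg20, had a difference of 2.77 ± 0.67 (edgeR adjusted p = 0.014), lost in 3 of 12 such fits, with 5.53, 7.00 and 4.49 CPM in siHsf1 GCN5 libraries, against 7.78, 6.82 and 7.31 CPM in siControl GCN5 libraries. Ggcx (gamma-glutamyl carboxylase), with its 3' end under a broad peak, had a difference of 3.24 ± 0.83 (edgeR adjusted p = 0.031), lost in 6 of 12 such fits and with TMM scaling (edgeR adjusted p = 0.26). It rested on 7, 9 and 24 counts in siHsf1 GCN5 libraries, against 0, 15 and 3 counts in siControl GCN5 libraries, and on 3, 2 and 7 counts in siHsf1 LacZ libraries, against 8, 3 and 32 counts in siControl LacZ libraries. Ifit3 and Mir6516 kept their direction and call with TMM scaling.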

How the results depend on the processing

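The number of broad peaks followed the width limit: 1456 at 10000 bp, 7000 at 6000 bp and 7181 when peaks within 1000 bp were joined, with 57.8, 39.1 and 36.6% of them on chromosome 15. CKO peaks at or above their median maximum lay inside 371 broad peaks. Covered genes numbered 857 with at least 50% of the gene under broad peaks, 454 with the whole gene, 1116 with the 5' end and 1226 with peaks of 10000 bp, and 553 genes with the 5' end covered were expressed.

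Of 55 covered genes called in LacZ cells, the count was 35 with the 5' end covered, 33 with no filter, 452 with TMM scaling, 400 with DESeq2, and 11 to 255 with 1 library left out. In GCN5 cells, where 1 was called, edgeR called 0 with the 5' end covered or at 10000 bp. Of 541 tested genes with the 5' end covered, 7 had an unadjusted p under 0.05, a count without a share over all genes. In the same cells 2 were called with TMM scaling, 2 with DESeq2, and 1 to 2 with 1 library left out. For the interaction, with 3 called, the counts were 1 with the 5' end covered, 1 at 10000 bp, 262 with TMM scaling, 226 with DESeq2 and 1 to 22 with 1 library left out. Shares over all genes tested are given above for spike-in and TMM scaling alone. They were not computed for the other fits, whose counts therefore do not set covered genes apart.

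Deviations of same-numbered libraries had correlations across genes between -0.066 and 0.10, which cannot show a shift shared by whole libraries. The share of spike-in reads was lowest in replicate 1 of each group. It was highest in replicate 2 of the siControl LacZ, siHsf1 LacZ and siControl GCN5 groups and in replicate 3 of siHsf1 GCN5. Whether the numbers pair the libraries was therefore not settled. With a replicate block the counts were 278 (25 higher, 253 lower), 2 and 60 (52 higher, 8 lower) for LacZ, GCN5 and the interaction. TMM scaling and the replicate block together gave 470, 2 and 278, an alternative chosen after seeing the data. The share over all genes tested was not computed for these fits, so their counts do not set covered genes apart. The interactions of Myc and Kat2a passed with the replicate block (edgeR adjusted p = 0.0024 and 0.0044). Over 348 alternatives of 30 named values that passed, 264 kept direction and call, 84 lost the call and 0 reversed. The causes were not tested. GCN5 libraries were shallower, at 3.69 M to 4.27 M counts, than LacZ libraries, at 7.22 M to 8.16 M, and peak lists carry no replicate error.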
